A study of Homo sapiens with 6 samples.

Results

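H2AFY, now named MACROH2A1, encodes the histone variant macroH2A1. The members described here are all splice junctions on the minus strand of chromosome 5 (build hg19) whose introns lie inside the H2AFY locus, and each was read from STAR junction tables of 6 libraries. There were 60 such junctions among 780566 in all tables together, with the outermost intron bases at 134670832 and 134735475. The libraries were made from poly(A)+ RNA of K562, a human chronic myeloid leukaemia line. In total, 3 libraries came from K562 cells with a wild-type knock-in of U2AF1 (WT) and 3 from K562 cells with U2AF1 S34F (S34F). U2AF1, the small subunit of the splicing factor U2AF, recognises the AG dinucleotide that closes an intron, and S34F exchanges a serine for phenylalanine in a zinc finger of it. The labels do not state how the S34F cells were made. The labels do not say whether the libraries of a group came from separate cultures or clones, so that p-values measure the spread between these libraries, which may be technical.

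MacroH2A1 joins a histone H2A-like part to a large globular macro domain by a linker, and it is found on transcriptionally inert chromatin, including the inactive X chromosome. Its pre-mRNA holds a pair of mutually exclusive exons that code for part of the macro domain. The macroH2A1.1 form binds ADP-ribose and poly(ADP-ribose), whereas macroH2A1.2 does not, and macroH2A1.1 is known mainly from differentiated, slowly dividing cells. The exon choice is known to be regulated by RNA-binding proteins such as QKI, and H2AFY has been reported among the splicing targets of U2AF1 S34F in blood cells. The comparison asks which splice site choices within H2AFY differ between S34F and WT cells.

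The libraries held from 18074706 to 39279169 uniquely mapped spliced reads, S34F replicate 3 being the deepest. H2AFY took 5122, 5311 and 4444 of these reads in WT and 4705, 4372 and 12256 in S34F. The S34F change itself cannot be read from junction counts, and levels of U2AF1 and of K562 marker genes were not analysed here.

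Of the 60 junctions, 21 were annotated in the deposited tables and 39 were not. The 21 annotated junctions carried 99.2% of the 36210 unique reads on H2AFY, and the unannotated junction with the most reads had 55 over the 6 libraries. Altogether 19 junctions had a unique read in every library, 15 of them annotated. Another 21 junctions had unique reads in only 1 library each, not always the same one, and 2 junctions were covered by multi-mapped reads alone. By the motif code of the tables, 59 introns were of the GT-AG type and 1 was of another type.

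The 11 junctions with more than 100 reads held 98.7% of the reads and define the exon chain used below, numbered in transcript order from exon 1 to exon 9. Exon 1 ends at the donor 134734751. Exon 2 (134724612 to 134724816) is 205 nt long, exon 3 (134705726 to 134705832) 107 nt and exon 4 (134705096 to 134705293) 198 nt. Exon 5 (134696187 to 134696294 or 134696297) is 108 or 111 nt long because it has 2 acceptors. Position 6 is held by the mutually exclusive exons: a 100 nt exon at 134688636 to 134688735 and, after an intron of 2032 nt, a 91 nt exon at 134686513 to 134686603. Exon 7 (134681658 to 134681747) is 90 nt long, exon 8 (134678950 to 134679124) 175 nt, and the last exon follows the acceptor 134670832. The tables do not name isoforms. The 100 nt exon is called the macroH2A1.2 exon and the 91 nt exon the macroH2A1.1 exon, since the macroH2A1.2 protein is known to be the longer one by 3 residues, which matches the difference of 9 nt. Both lengths leave a remainder of 1 after division by 3, so that both exons keep the same reading frame downstream, and skipping both would shift it.

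The macroH2A1.1 exon fell in S34F cells. Each exon of the pair is joined to exon 5 by an entry junction and to exon 7 by an exit junction, and the share of the macroH2A1.1 exon is its 2 junctions over all 4. That share was 18.1%, 10.8% and 10.3% in WT replicates 1, 2 and 3 and 2.91%, 2.90% and 1.72% in S34F replicates 1, 2 and 3. All WT libraries lay above all S34F libraries, with a gap of 7.41 percentage points between the lowest WT and the highest S34F library. The 95% Clopper-Pearson interval, which covers counting error only, was 8.75% to 12.1% in the lowest WT library and 2.12% to 3.88% in the highest S34F library. It treats entry and exit reads as separate, so that it can be too narrow where a molecule was counted at both. The group means were 13.1% ± 4.3 in WT and 2.51% ± 0.68 in S34F (mean ± SD, n = 3 each), and the macroH2A1.2 exon held the remaining 86.9% and 97.5%. The change in log2 odds of the macroH2A1.1 exon was -2.59 (SE 0.30, edgeR quasi-likelihood adjusted p = 0.00149). In such bulk libraries, fewer cells that use the exon and less use of it per cell cannot be told apart.

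**Figure D1:**
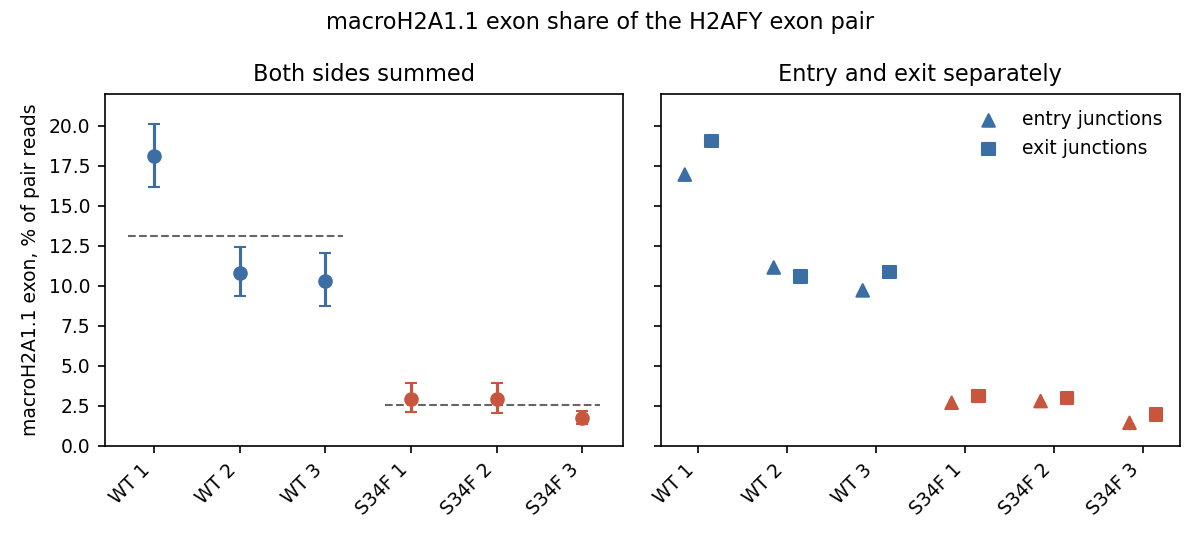
Left, share of the macroH2A1.1 exon among the reads of both exons (%), per library, with 95% Clopper-Pearson intervals and dashed lines at the group means of 13.1% in WT and 2.51% in S34F. Right, the same share from the entry junctions (triangles) and the exit junctions (squares) alone; all S34F points lie below all WT points on both sides.

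This test was part of a fit over 1016 combinations of outer splice sites and mutually exclusive exons found across all tables, of which 41, or 4.04%, were called at an adjusted p under 0.05 with group means at least 10 percentage points apart; 8.66% passed the adjusted p alone. The combinations held 821 distinct exon pairs. H2AFY gave 2 of the combinations, both past the adjusted p and 1 called. The called H2AFY pair had the second lowest p-value among all combinations. It stood at place 7 by the size of the change in log2 odds, where the median size over all combinations was 0.43. Of the 41 calls, 26 (2.56% of all combinations) moved towards the upstream exon, as H2AFY did, and 15 (1.48%) towards the downstream exon. On the adjusted p alone, 4.13% of the combinations moved towards the upstream exon and 4.53% towards the downstream exon. The 10-point part of the call rested on WT replicate 1. Without it the share fell by 8.06 points from a WT mean of 10.6%, with an edgeR adjusted p of 0.00233. Adding multi-mapped reads raised the number of combinations tested to 18655, and the pair then had an adjusted p of 0.217 with a change of -2.41.

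**Figure D2:**
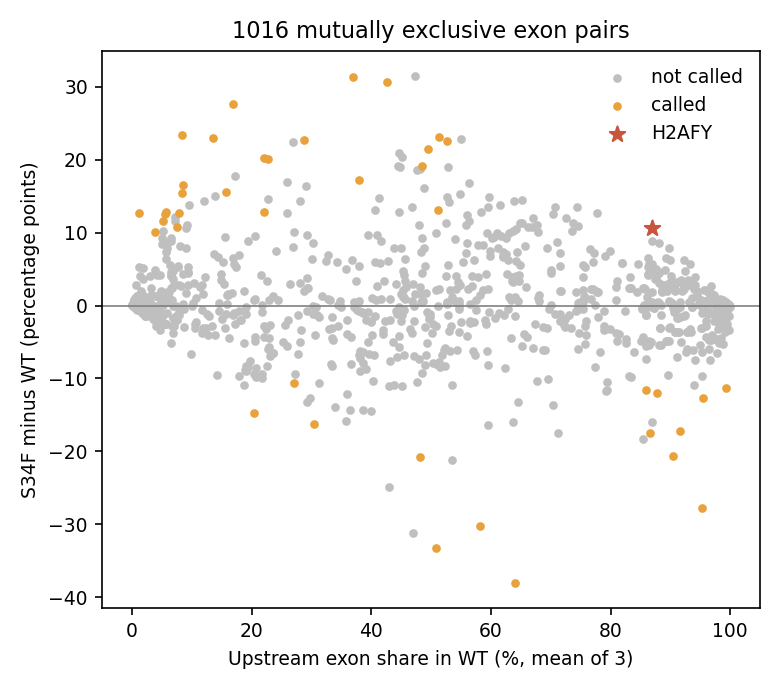
Each point is 1 of 1016 combinations of outer splice sites and mutually exclusive exons, so that an exon pair can appear more than once. The WT share of the upstream exon (x axis, %, mean of 3 libraries) is set against the change in S34F (y axis, percentage points). Called combinations are orange and the H2AFY pair is the red star, at 86.9% in WT and 97.5% in S34F.

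The entry and exit sides gave the same picture. Their junctions flank the same exons, and a read that crosses both is counted at each, so that the sides are not independent. On the entry side, the macroH2A1.1 junction (134686604 to 134696186) had 117, 82 and 61 reads in WT and 18, 16 and 25 in S34F. The macroH2A1.2 junction (134688736 to 134696186) had 574, 655 and 568 reads in WT and 654, 559 and 1729 in S34F. The macroH2A1.1 counts did not overlap between the groups, although the S34F libraries include the deepest one.

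On the exit side, the macroH2A1.1 junction (134681748 to 134686512) had 155, 96 and 79 reads in WT and 26, 23 and 42 in S34F. The macroH2A1.2 junction (134681748 to 134688635) had 659, 813 and 649 in WT and 815, 747 and 2104 in S34F. The macroH2A1.1 share was 12.6% ± 3.8 on entry and 13.5% ± 4.8 on exit in WT, and 2.3% ± 0.76 and 2.68% ± 0.63 in S34F (n = 3 each). Entry and exit thus differed by less than the spread between libraries.

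**Figure D3:**
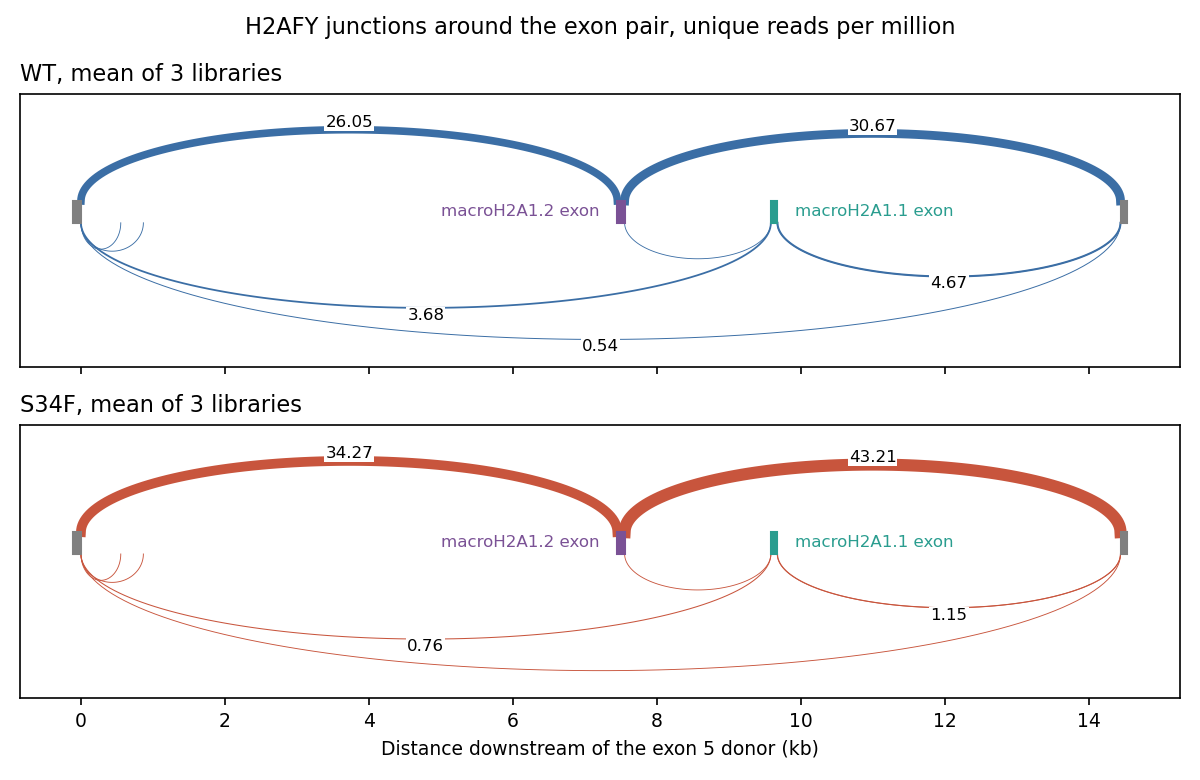
Junctions with at least 10 reads between exon 5 (grey, left), the mutually exclusive exons and exon 7 (grey, right), with the distance from the exon 5 donor in kb on the x axis. Line width, with a minimum for rare junctions, and the labels, left out for the rarest, give the mean number of unique reads per 1000000 unique spliced reads: the macroH2A1.1 junctions go from 3.68 and 4.67 in WT to 0.76 and 1.15 in S34F, and those of macroH2A1.2 from 26.05 and 30.67 to 34.27 and 43.21.

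Acceptor choice was then read out of a fit over every 5′ splice site with a choice, 51522 junction and site combinations in all. Of the 60 junctions, 44 share their 5′ splice site with another junction, and 18 of these had enough reads to be tested. A tested junction needed 20 reads at its site in every library. Over the 6 libraries, it and its competitors together each needed 10 reads. At an adjusted p under 0.05 with 10 points between the means, 1 of the 18 was called, against 2.12% of all combinations, and 3 of 18 passed the adjusted p alone, against 4.64%. The median size of the change in log2 odds was 0.53 over the 18 and 0.69 over all. From the exon 5 donor, the macroH2A1.1 acceptor fell from 12.2% ± 3.6 of the reads to 2.24% ± 0.73 (edgeR adjusted p = 0.000535, change in log2 odds -2.67 with SE 0.40), a difference just under 10 points. The macroH2A1.2 acceptor rose from 84.9% ± 4.3 to 95.4% ± 1.1 (edgeR adjusted p = 0.00381, change in log2 odds 1.93 with SE 0.37). Both acceptors compete for the same donor and use the entry counts of the exon pair, so that these changes are not independent. With limma on log2 odds neither passed (adjusted p = 0.0729 and 0.118). The macroH2A1.2 acceptor also missed the threshold with DESeq2 (0.0656) and without S34F replicate 3 (0.0849).

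Donor choice asks which upstream donor was joined to a given 3′ splice site. It was tested at 48269 combinations, of which 0.934% were called. In H2AFY, 33 junctions share their 3′ splice site with another and 11 were tested; 2 of the 11 were called, 1 in each direction, and both at the exon 7 acceptor. The same 2 passed the adjusted p alone, against 2.04% of all combinations. The median size of the change in log2 odds was 2.34 over the 11 and 0.64 over all. Of the 11, 5 compete at the exon 7 acceptor, so that they are not independent. The tested junctions into the macroH2A1.1 acceptor also compete with each other, as do those into the last acceptor. Shares at the exon 7 and macroH2A1.1 acceptors draw on the reads of the exon pair, so that this median does not describe the gene as a whole. At the exon 7 acceptor the macroH2A1.1 donor fell from 13.0% ± 4.5 to 2.65% ± 0.62 (edgeR adjusted p = 0.00161, change in log2 odds -2.46 with SE 0.39). The macroH2A1.2 donor rose from 83.5% ± 5.3 to 96.3% ± 0.61 (edgeR adjusted p = 0.00161, change in log2 odds 2.36 with SE 0.37). Without S34F replicate 3 the adjusted p-values were 0.0865 and 0.0863, and with limma 0.114 and 0.115.

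**Figure D4:**
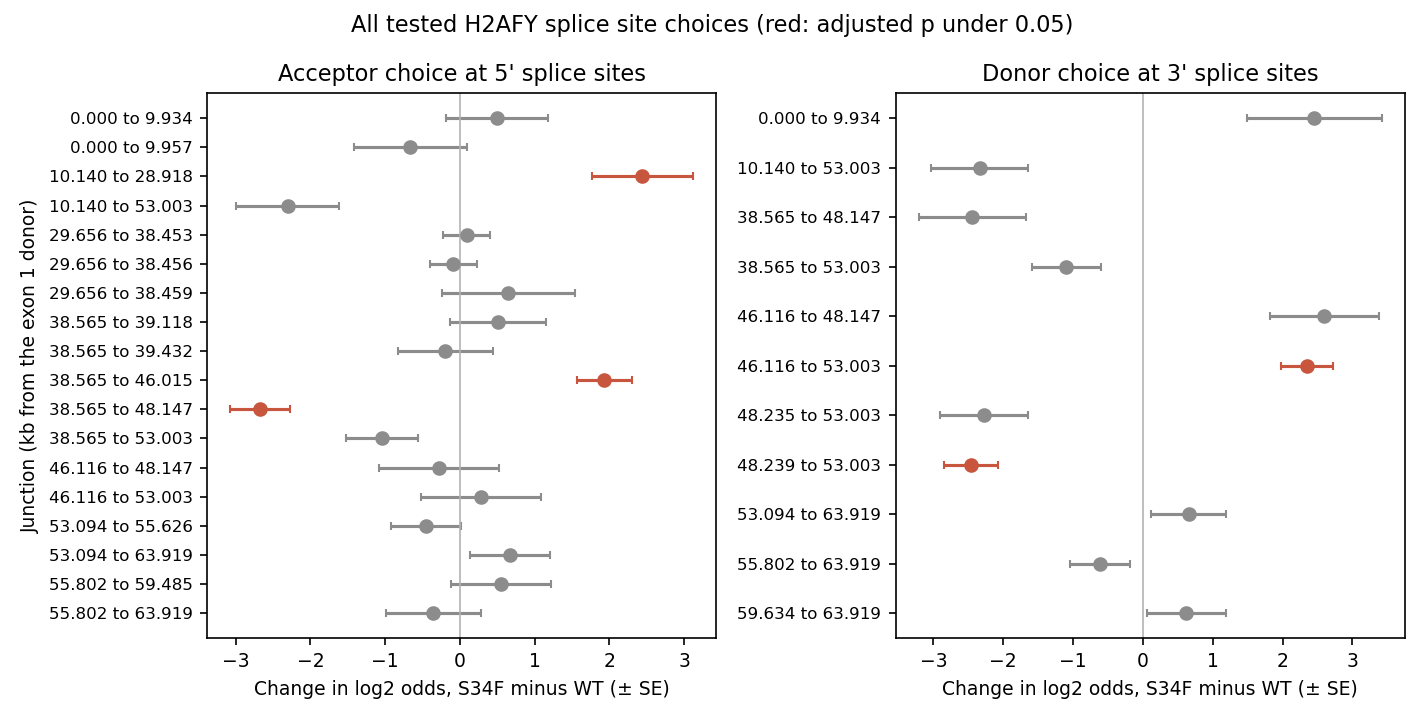
Change in log2 odds (S34F minus WT, ± SE) for the 18 junctions tested for acceptor choice (left) and the 11 tested for donor choice (right), each labelled by its first and last intron position in kb from the exon 1 donor. Red points passed an adjusted p under 0.05; apart from the exon 2 to exon 3 junction, they are junctions of the mutually exclusive exons.

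Other ways through the pair were rare. Skipping of both exons, from exon 5 straight to exon 7 (134681748 to 134696186), was annotated and had 15, 8 and 14 reads in WT and 7, 4 and 15 in S34F. As a share of its own reads plus the mean of the reads entering and leaving the exon pair, it was 1.95%, 0.963% and 2.02% in WT and 0.917%, 0.591% and 0.763% in S34F. On these unique reads the groups did not overlap, but the lowest WT library lay close to the highest S34F library. The means were 1.65% ± 0.59 and 0.757% ± 0.16. The junction also had 6, 3 and 8 multi-mapped reads in WT and 4, 3 and 13 in S34F, which these shares leave out. They are many beside the unique reads, so that the separation holds for unique reads only. In the fits over all sites the junction did not pass (edgeR adjusted p = 0.228 for acceptor choice and 0.249 for donor choice). With multi-mapped reads added, these were 0.314 and 0.333.

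Inclusion of both exons in 1 transcript used an unannotated junction (134686604 to 134688635) that had 4, 3 and 1 reads in WT and 2, 5 and 4 in S34F. On the same kind of share it took 0.346% ± 0.19 in WT and 0.402% ± 0.29 in S34F. Counted at the macroH2A1.1 acceptor, the same reads were 3.28%, 3.53% and 1.61% of entries into the macroH2A1.1 exon in WT and 10%, 23.8% and 13.8% in S34F, where entries from exon 5 were few. All S34F libraries were above all WT libraries, with 20 to 122 reads at this acceptor, but the change was not past the threshold (edgeR adjusted p = 0.0721, change in log2 odds 2.60 with SE 0.78).

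The macroH2A1.1 exon has a second annotated donor 4 nt inside it, which shortens it to 87 nt and changes the frame. That donor had 11, 7 and 6 reads in WT and 2, 2 and 3 in S34F. It made up 6.63%, 6.80% and 7.06% of the exits from the exon in WT and 7.14%, 8.0% and 6.67% in S34F, so that the groups overlapped. The pair of 100 and 87 nt exons was the other H2AFY combination in the fit; its downstream exon went from 6.78% ± 2.3 to 1.14% ± 0.36 (edgeR adjusted p = 0.00149, change in log2 odds -2.75 with SE 0.32), less than 10 points, and it shares the entry junction with the main pair.

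The level of spliced H2AFY reads was compared separately from the shares. All 60 junctions together had 201.4, 213.0 and 229.3 unique reads per 1000000 unique spliced reads (RPM) in WT and 200.5, 241.9 and 312.0 in S34F. The groups overlapped, S34F replicate 1 being the lowest of all 6 libraries and S34F replicate 3 the highest. The means were 214.6 ± 14 and 251.5 ± 56.4 (two-sided exact permutation p = 0.4, adjusted p = 0.48 over the 6 quantities compared this way; with 3 libraries a side no p below 0.1 can be reached).

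Levels of the constitutive junctions also overlapped between the groups. From exon 1 to exon 2 there were 13.8, 13.4 and 14.7 RPM in WT and 11.8, 16.5 and 20.4 in S34F, and from exon 8 to the last exon 28.5, 30.0 and 30.2 in WT and 25.7, 33.7 and 39.3 in S34F. At both ends of the gene S34F replicate 1 was the lowest library and S34F replicate 3 the highest. Between them, the exon 3 to exon 4 junction had 22.8, 24.5 and 27.6 RPM in WT and 25.4, 29.9 and 39.9 in S34F, where WT replicate 1 was the lowest library. The means there were 25 ± 2.4 and 31.7 ± 7.5, and those of the exon 7 to exon 8 junction were 23.6 ± 1.2 and 26.2 ± 5.4; these levels were not tested singly.

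The macroH2A1.1 exon, taken as the mean of its entry and exit junctions, had 5.35, 3.57 and 3.61 RPM in WT and 0.938, 1.08 and 0.853 in S34F. The groups did not overlap, and the WT mean of 4.18 ± 1.0 was 4.37 times the S34F mean of 0.956 ± 0.11 (two-sided exact permutation p = 0.1, adjusted p = 0.3). This ratio leaves out multi-mapped reads, which were a larger part of the exit junction in S34F. There were 15, 9 and 9 on exit in WT and 7, 8 and 19 in S34F, and 5, 2 and 2 on entry in WT and 3, 1 and 2 in S34F. With multi-mapped reads added, the mean share of the exon in the pair was 13.6% in WT and 3.06% in S34F. The macroH2A1.2 exon had 24.2, 29.4 and 31.4 RPM in WT and 31.3, 36.1 and 48.8 in S34F. These overlapped narrowly, and the difference of 10.4 RPM between the means of 28.4 ± 3.7 and 38.7 ± 9.0 had an exact permutation p of 0.2 (adjusted p = 0.4). Skipping of both exons had an exact permutation p of 0.1 (adjusted p = 0.3), double inclusion one of 0.8 (adjusted p = 0.8) and the 4 nt shorter donor one of 0.4 (adjusted p = 0.48).

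**Figure D5:**
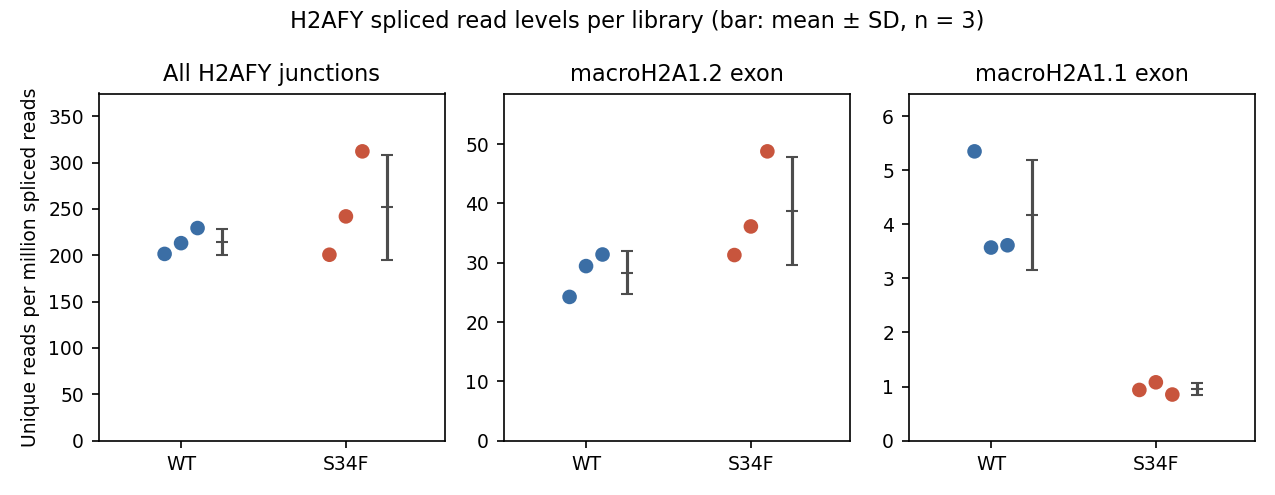
RPM (unique reads per 1000000 unique spliced reads) in each library for all H2AFY junctions, the macroH2A1.2 exon and the macroH2A1.1 exon, with bars at the mean ± SD (n = 3). Only in the macroH2A1.1 panel do the groups stay apart, at 3.57 to 5.35 in WT and 0.853 to 1.08 in S34F.

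Exon 5 offers a choice between 2 annotated acceptors 3 nt apart, a tandem 3′ splice site that adds or removes a codon in the stretch before the mutually exclusive exons. The upstream acceptor (134696298) took 37.9%, 41.3% and 38.9% of the reads from the exon 4 donor in WT and 37.7%, 42.4% and 42.4% in S34F. The groups overlapped over nearly their whole range. The means were 39.4% ± 1.8 and 40.9% ± 2.7 (edgeR adjusted p = 0.916, change in log2 odds 0.09 with SE 0.31), the donor having 556 to 1600 reads in each library. The downstream acceptor (134696295) took 59.8% ± 1.4 and 58.3% ± 2.9 (edgeR adjusted p = 0.919).

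From the exon 2 donor nearly all reads went to exon 3. The exon 2 to exon 3 junction (134705833 to 134724611) took 98.3%, 99.0% and 98.7% of the reads in WT and 100%, 99.6% and 99.7% in S34F. The change of 1.12 points passed the adjusted p (edgeR adjusted p = 0.0371, change in log2 odds 2.44 with SE 0.68) but not the minimum of 10 points. Its main competitor was an annotated junction from exon 2 to exon 7 (134681748 to 134724611), which leaves out exons 3 to 6 and had 10, 6 and 5 unique reads in WT and 0, 2 and 4 in S34F (edgeR adjusted p = 0.0529). The same junction had 6, 3 and 7 multi-mapped reads in WT and 4, 3 and 13 in S34F. These counts equal those of the exon 5 to exon 7 junction except in WT replicate 3, where that junction had 8. Whether the same reads were counted at both junctions was not tested. With multi-mapped reads added, the exon 2 to exon 3 change was 1.17 in log2 odds (edgeR adjusted p = 0.147). The adjusted p was not under 0.05 in 10 of 13 alternatives, including each of the 6 that left out a library.

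At the 3′ end, the junction from exon 8 to the last exon (134670832 to 134678949) took 98.1% ± 0.78 of the reads into the last acceptor in WT and 97.2% ± 0.33 in S34F. Its competitors were unannotated: a junction from exon 7 that leaves out exon 8 (134670832 to 134681657), at 0.843% ± 0.46 and 1.25% ± 0.39, and one from a donor inside the last intron (134670832 to 134675117), at 0.835% ± 0.32 and 1.39% ± 0.88. None of these shares passed (edgeR adjusted p = 0.508, 0.586 and 0.628). The donor inside the last intron faces an unannotated acceptor, reached from exon 8 (134675266 to 134678949) by 1, 3 and 5 reads in WT and 6, 2 and 10 in S34F, so that both junctions together outline an exon the tables do not annotate. Its acceptor took 0.460% ± 0.36 of the exon 8 reads in WT and 0.650% ± 0.33 in S34F (edgeR adjusted p = 0.714). At the 5′ end, the exon 1 donor took 99.1% ± 0.22 of the reads into exon 2 in WT and 99.8% ± 0.17 in S34F (edgeR adjusted p = 0.176), the rest coming from other donors with at most 8 unique reads each. The intron after exon 5 holds 2 further annotated acceptors upstream of the mutually exclusive exons. The nearer one (134695633 to 134696186) had 4, 4 and 1 reads in WT and 6, 4 and 8 in S34F, and the farther one (134695319 to 134696186) had 8, 5 and 2 in WT and 3, 7 and 8 in S34F. Each took under 1% of the exon 5 donor on average, and neither passed (edgeR adjusted p = 0.720 and 0.909). The remaining junctions tested for acceptor choice had edgeR adjusted p-values from 0.528 to 0.897.

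The 3 mutually exclusive pairs elsewhere whose log2 odds across the 6 libraries were most like those of H2AFY were taken by the size of Pearson's r. They are named by position, and r is a description only, since all pairs come from the same 6 libraries and groups. The first lay on the plus strand of chromosome 8 (126111696 to 126111799 and 126114256 to 126114388, r = 0.98). Its exons were 104 and 133 nt long, with an upstream exon share of 5.56% ± 0.18 in WT and 7.09% ± 0.25 in S34F (edgeR adjusted p = 0.571). The second lay on the minus strand of chromosome 16 (15217293 to 15217424 and 15212783 to 15212911, r = 0.98) and had shares of 0.649% ± 0.088 and 3.42% ± 0.31 (edgeR adjusted p = 0.0118). The third lay on the plus strand of chromosome 19 (34882415 to 34882863 and 34882964 to 34883063, r = -0.98) and had shares of 95.4% ± 1.1 and 92.2% ± 0.94 (edgeR adjusted p = 0.187). Of 1014 combinations of outer splice sites and exons compared, 64 had an r beyond 0.9 in either direction, and the median size of r was 0.51.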

How the data were processed

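Junction tables of 6 libraries were used, 1 per library and none pooled. The authors deposited raw counts of uniquely mapped and multi-mapped reads per splice junction, made with STAR on hg19 per the submitters' processing notes; the STAR version, the annotation and the junction filters are not given in the sources used here. Tables were joined on position, and a missing junction was counted as 0. Only motif codes 1 to 6 entered the tests.

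H2AFY was read out of 3 fits over the whole table: acceptor choice at 5′ splice sites, donor choice at 3′ splice sites and mutually exclusive exon pairs. A pair is 2 non-overlapping exons of at most 500 nt that join the same outer donor and acceptor by 4 junctions of at least 10 reads, where the junction between the exons carries under 10% of their mean. Each event had 2 unique counts per library (target and other), at least 20 reads in every library and 10 on each side. edgeR 4.0.16 (R 4.3.3, quasi-likelihood F-test, robust, legacy dispersion) modelled each library, the kind of count and a term for how that kind differs in S34F. The term for each library takes up differences in library size in the comparison. The total of unique spliced reads was still supplied as library size, also for estimating the dispersion. p-values were Benjamini-Hochberg adjusted within each fit, and the standard error is the coefficient over the square root of F. A call needs an adjusted p under 0.05 and 10 percentage points. The fits were tested on simulated data. For levels and the rarer paths, group means were set against every relabelling of the 6 libraries (exact permutation, two-sided). Alternatives used DESeq2 1.42.0 and limma 3.58.1 on log2 odds (0.5 added to each count), other filters, and libraries left out. Tables were joined in Python 3.11.15.

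The members, lists and rules were chosen with earlier results of these data known. Junctions were named if they belong to the exon pair, had at least 5% of their site's reads beside another such junction, or passed the adjusted p; those of the 5′ and 3′ ends, the intron after exon 5 and the constitutive levels were chosen after their values were seen. Genes related to macroH2A1 (MACROH2A2, PARP1, QKI, MBNL1, RBFOX2, DDX5, DDX17), K562 markers and splice site sequences were not analysed here, since gene coordinates and sequence of hg19 were not used.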

Additional observations from a re-analysis of the deposited data

How the results depend on the processing

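The fall of the macroH2A1.1 exon kept its direction in all 13 alternatives run, with log2 odds of -2.76 to -2.29 when 1 library was left out. The call was lost with multi-mapped reads added (-2.41, edgeR adjusted p = 0.217, 18655 combinations tested) and without WT replicate 1, where the share fell by 8.06 points. With limma the pair's adjusted p was 0.0396. Counts of calls over the whole table moved far more. Acceptor choice (1092 calls) gave 150 with DESeq2, 0 with limma (9648 at an unadjusted p under 0.05), 681 with at least 50 reads, 495 with no minimum per library and 77 to 1932 with 1 library left out, the extremes being without S34F replicate 3 and without WT replicate 1. Donor choice (451) gave 185, 0 (7794 at an unadjusted p under 0.05), 301 and 208 in the same order, and 4 to 1208 with 1 library left out, from the same libraries. Exon pairs (41) gave 31 with DESeq2, 18 with limma, 26 with at least 50 reads, 19 with annotated junctions alone, 0 with multi-mapped reads (709 at an unadjusted p under 0.05) and 10 to 48 with 1 library left out. Libraries sharing a replicate number showed no clear pairing (correlations of deviations -0.086, -0.023 and -0.036). So few values cannot show that the libraries were unpaired. With a replicate block the exon pair count was 1, which was H2AFY (-2.55, adjusted p = 0.0102), acceptor choice gave 922 and donor choice 348. The change of the double inclusion junction at the macroH2A1.2 donor turned from -0.28 to 0.16 without WT replicate 1 and to 0.23 without S34F replicate 3 (range -0.84 to 0.23 with 1 library left out), and its mirror to exon 7 from 0.28 to -0.16 and -0.23 (range -0.23 to 0.84). The difference in H2AFY level was 6.62 to 62.4 RPM with 1 library left out. The causes of these shifts were not tested. At 20 to 122 reads, the macroH2A1.1 acceptor had the least depth of the tested sites.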
